A study of Homo sapiens with 4 samples.

Results

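The proteasome genes were taken as the protein-coding genes whose symbol is PSM followed by a class letter from A to G and a number. Of the 58302 genes listed in the deposited counts, 50 met this description in GENCODE release 44, and 48 of them had a mean of at least 10 reads over the 4 libraries. The 2 genes below that mean were PSMA8, a testis-specific core subunit with 1 read in no dox replicate 2 and 0 elsewhere, and PSMB11, the thymus-specific catalytic subunit with 2 reads in dox replicate 1 and 0 elsewhere. A library with 0 reads allows up to 3 reads of either gene, counting error alone considered. Another 51 names fit the pattern but were not protein-coding, and were used only for the account of shared reads. The 48 genes kept comprised 7 PSMA genes, 7 constitutive PSMB genes, the 3 inducible genes PSMB8, PSMB9 and PSMB10, 6 PSMC, 14 PSMD, 4 PSME, 1 PSMF and 4 PSMG genes. The remaining 2, PSMC3IP and PSME3IP1, carry subunit names because their products bind a subunit and are not proteasome parts, which left 46 proteasome genes proper.

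The cells were MIB1-iKO cells, a derivative of the NCI-H838 human lung cancer line in which a piggyBac transposon carries a guide RNA against MIB1, Cas9 under a doxycycline (Dox)-driven promoter and puromycin resistance. All 4 libraries come from cells with this construct: 2 were prepared at day 3 without Dox (no dox) and 2 at day 3 with 0.5 μg/mL Dox (dox). Which clone and which guide gave these libraries was not given in the sources used here, and no sample analysed here received Dox without an active guide, so an effect of Dox or Cas9 and an effect of MIB1 loss cannot be told apart. The question addressed here was whether transcripts of the protein-degrading machinery differ when MIB1, itself a ubiquitin ligase, is removed.

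The 26S proteasome degrades proteins tagged with ubiquitin. Its barrel-shaped 20S core is built of rings of α subunits (PSMA genes), which gate the entrance, and β subunits (PSMB genes), of which PSMB5, PSMB6 and PSMB7 cut peptide bonds. In cells exposed to interferon these are exchanged for PSMB8, PSMB9 and PSMB10 to form the immunoproteasome, known for producing peptides for MHC class I. A 19S regulatory particle caps the core, with a base of ATPases (PSMC genes) that unfold substrates and non-ATPase subunits (PSMD genes) that bind ubiquitin, remove it and form the lid, while the PSME genes encode alternative caps, PSMF1 an inhibitor and the PSMG genes assembly chaperones.

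The edited gene was checked first: reads of MIB1 numbered 598 and 588 in no dox and 90 and 59 in dox cells, and it fell by 2.58 ± 0.23 (SE) on the log2 scale (limma adjusted p = 0.000375). The libraries held 15943025 to 24398411 reads, fewer in both dox libraries. Among 16181 genes tested, 6 (0.0371%) met both the limit on the adjusted p (0.05) and that on the change (2-fold or more), which defines a called gene here, and 0 did without the filter on low counts or when any single library was left out. With a library left out, MIB1 was at -3.00 to -2.16 on the log2 scale. Of 6 epithelial markers, 5 were tested and KRT19 had 0 reads in every library, and KRT8 and KRT18 were lower with dox in both libraries (log2 fold changes -0.34 and -0.41). EPCAM, CDH1 and KRT7 were higher in both (0.13, 0.25 and 0.13), and the median of the 5 was 0.13. Whether that bears on the proteasome values was not tested. Other cell types were close to absent: summed over 4 genes each, leukocyte markers reached 0.490 to 0.847 RPKM without dox and 0.704 to 0.847 with dox, with PTPRC and CD68 at 0 reads throughout. Fibroblast markers summed to 0.261 to 0.700 RPKM and endothelial markers to 0.0536 to 0.121 RPKM over the libraries.

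The 48 genes, PSMC3IP and PSME3IP1 included, accounted for 1.71% and 1.62% of all no dox reads and for 1.67% and 1.51% of all dox reads. None of the 48 genes was called (0 by limma, edgeR and DESeq2), and the lowest adjusted p, for PSMB9, was 0.167 by limma. An adjusted p of 0.05 or less, without a limit on the change, was reached by 0.068% of all genes. In the same fit 7 of the 48 (14.6%) lay below an unadjusted p of 0.05, against 9.28% of all genes tested, and edgeR and DESeq2 placed 6 and 4 proteasome genes there. With any 1 library left out the number by limma was lower. The share of all genes under that p is not given here for edgeR, DESeq2 or those fits. Their numbers are therefore not read as a result about the 48 genes. In bulk RNA, fewer cells with a transcript and less of it per cell cannot be told apart. PSMB9, PSMB8 and PSME1 were the 3 on the higher side (4.68% of all genes), whereas PSMC3, PSMC5, PSMD14 and PSME3 were the 4 on the lower side (4.59% of all genes). The fold change was below 0 for 36 of the 48 genes (75.0%, against 50.1% of all genes), and its median was -0.09 on the log2 scale, against -0.0004 for all genes. The no dox and dox libraries did not overlap in 24 genes (50.0%, against 38.6% of all genes), of which 19 were lower and 5 higher with dox (19.1% and 19.5% of all genes). PSME3IP1, which is not a proteasome part, was among the 5. For 47 of the 48 genes the 95% confidence interval lay inside a 2-fold change in either direction. PSMC1, with very few reads of its own, was the exception.

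**Figure D1:**
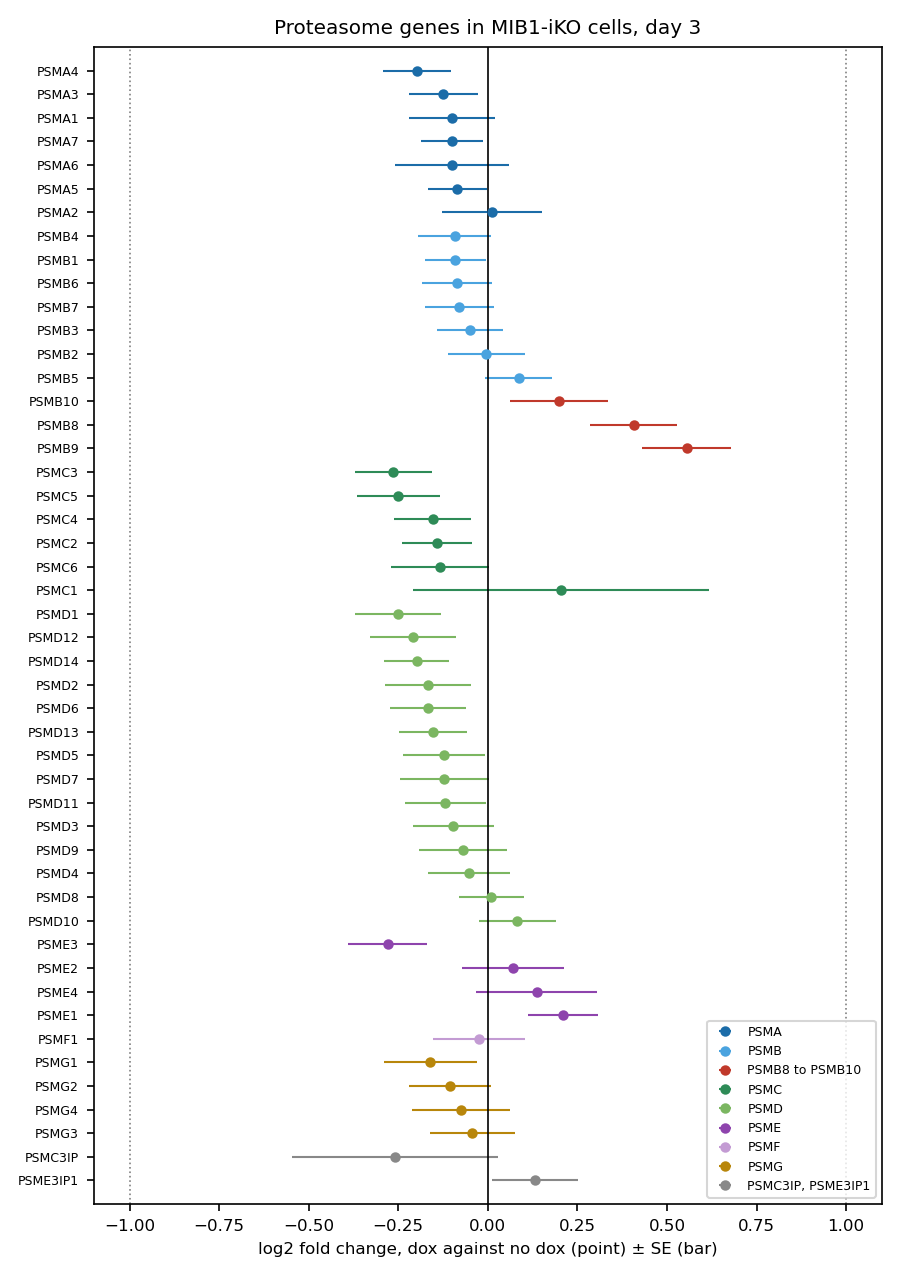
Log2 fold change of dox against no dox for the 48 genes kept, of which 46 are proteasome genes and 2 are PSMC3IP and PSME3IP1. Points are limma estimates and bars the SE, grouped by class on the vertical axis, with dotted lines at a 2-fold change. PSMB8, PSMB9 and PSMB10 stand to the right of 0, most constitutive core, PSMC and PSMD genes to the left, and no point reaches a dotted line.

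The constitutive core differed little between the groups. Of its 14 genes, 12 had a fold change below 0, with a median of -0.09, and 0 were below an unadjusted p of 0.05. There was no overlap between groups for 8 of the 14 (57.1%, against 38.6% of all genes), 7 lower and 1 higher with dox. Levels across libraries are given as read counts scaled to the library total (CPM) and brought to common quantiles between libraries (normalized CPM), the scale that was tested. PSMA4, an α-ring subunit, had the lowest fold change of its class and stood at 909.7 and 856 normalized CPM without dox and 815 and 728 with dox, so that both dox libraries were below both no dox libraries. Its log2 fold change was -0.20 ± 0.10 (SE), with an unadjusted p of 0.0575. PSMA2, also an α-ring subunit, had the highest fold change of the class, with 73.9 and 59.4 without dox and 73.02 and 61.4 with dox. Here the groups overlapped and replicate 1 exceeded replicate 2 in each, with a log2 fold change of 0.01 ± 0.14 (SE) that turned to -0.02 with TMM factors.

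Among the constitutive β subunits the catalytic genes were nearly level. PSMB6, the caspase-like subunit, stood at 441 and 484 normalized CPM without dox and 432 and 439 with dox. PSMB7, the trypsin-like subunit, stood at 421 and 438 without dox and 410.4 and 403 with dox. Both were lower in the dox libraries without overlap, with log2 fold changes of -0.09 and -0.08. PSMB5, the chymotrypsin-like subunit and the target of the main proteasome inhibitor drugs, had the highest fold change of the class, with 643 and 654 without dox and 658 and 719 with dox, and was the only core gene higher in both dox libraries (log2 fold change 0.09 ± 0.09 (SE), 95% interval -0.12 to 0.29). The lowest fold change belonged to PSMB4, a non-catalytic β subunit, which stood at 264 and 271 without dox and 257 and 244 with dox. It differed by -0.09 ± 0.10 (SE) on the log2 scale, without overlap. The intervals of the 14 core genes together ran from -0.44 to 0.31.

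The 3 inducible catalytic genes were all on the higher side, with a median log2 fold change of 0.41. PSMB9, which takes the place of PSMB6, lies in the MHC region (chr6:32844136-32859851, plus strand, GENCODE release 44, GRCh38). Its annotated span includes the peptide transporter gene TAP1 on the opposite strand. PSMB9 stood at 45.2 and 44.03 normalized CPM without dox and 69.8 and 61.7 with dox. Both dox libraries were well above both no dox libraries, with an estimated level 46.9% higher. The log2 fold change was 0.56 ± 0.12 (SE), with a 95% interval of 0.29 to 0.82 and an unadjusted p of 0.000516, the 48th lowest among all genes. Adjusted over all genes the p was 0.167, so the gene did not pass the test.

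PSMB8, which replaces PSMB5 and is encoded beside PSMB9 on the opposite strand (chr6:32840717-32844679), stood at 63.3 and 58.6 normalized CPM without dox and 85.8 and 76.1 with dox. The groups again did not overlap, with a log2 fold change of 0.41 ± 0.12 (SE) (limma unadjusted p = 0.00485, adjusted p = 0.311). PSMB10, which replaces PSMB7 and lies on another chromosome (chr16:67934506-67936864), stood at 58.1 and 54.8 without dox and 73.3 and 57.4 with dox. Its higher value came from dox replicate 1, since dox replicate 2 lay just below no dox replicate 1, and the log2 fold change was 0.20 ± 0.14 (SE) with an interval of -0.09 to 0.49. Without dox replicate 1 it was 0.02. Exons of these genes share bases with neighbours. On opposite strands, 139 bases of PSMB9 exons overlap exons of PSMB8, and 602 bases of PSMB8 overlap the antisense gene PSMB8-AS1. Whether counting used strand was not stated. On the same strand, 174 bases of PSMB9 exons overlap PSMB8-AS1 and 640 bases of PSMB10 exons overlap another annotated gene. Strand would not separate reads in those bases.

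The induced subunits were a minor part of the catalytic transcripts. In RPKM, which corrects for the length of the gene model, PSMB9 amounted to 9.23% and 9.13% of PSMB6 without dox and to 14.3% and 14.1% with dox. For PSMB10 over PSMB7 the shares were 10.6% in both no dox samples and 13.4% and 12.1% in the dox samples. For PSMB8 over PSMB5 they were 9.01% and 8.86% without dox and 11.6% and 10.8% with dox. Each of the 3 ratios was higher in both dox libraries than in either no dox library, by 0.63, 0.27 and 0.33 on the log2 scale for PSMB9, PSMB10 and PSMB8. These ratios do not depend on how libraries are scaled to each other. The exact two-sided permutation test gave p = 0.333 for each of the 3, the smallest value that 2 libraries against 2 allow.

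**Figure D2:**
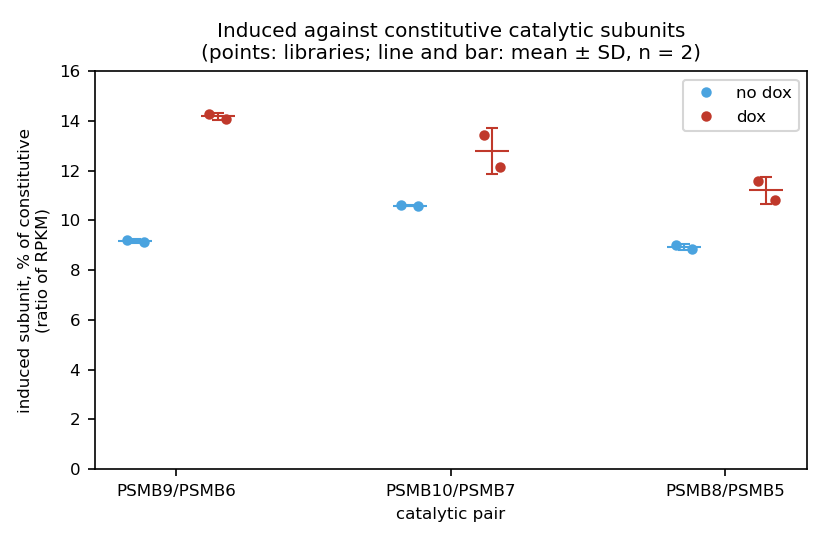
RPKM of each induced catalytic gene as a percent of the constitutive gene it replaces (vertical axis, starting at 0) for the 3 catalytic pairs; points are libraries, and lines and bars are the mean ± SD of 2 libraries. The dox libraries lie above the no dox libraries in each pair, most widely for PSMB9 over PSMB6, at 14.1% to 14.3% against 9.13% to 9.23%.

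The start regions of the inducible genes are shown because the 3 genes lay on the same side of 0, and those of PSME1, PSME2 and PSMG4 because they share letters with them. RefSeq windows of 300 bases, with 250 before and 50 after the annotated start (GRCh38.p14), were found for 42 of the 48 genes, 53 windows in all. Capitals mark matches, on either strand, to TGACNNNGC (the core of the antioxidant response element, the type of site bound by NFE2L1), CCAAT (the CCAAT box) and GAAANNGAAA (the core of the interferon-stimulated response element). The last motif was added after the values were seen. Sequences are given 5′ to 3′ on the strand of the gene, and no match overlapped another in these 6 windows.
PSMB9, chr6:32853942-32854241, plus strand: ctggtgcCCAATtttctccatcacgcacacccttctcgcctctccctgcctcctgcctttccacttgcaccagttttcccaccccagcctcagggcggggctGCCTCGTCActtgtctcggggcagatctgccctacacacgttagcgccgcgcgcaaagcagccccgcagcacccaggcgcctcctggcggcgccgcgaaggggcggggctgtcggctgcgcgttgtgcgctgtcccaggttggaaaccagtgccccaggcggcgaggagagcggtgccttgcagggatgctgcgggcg
PSMB8, chr6:32843998-32844297, minus strand: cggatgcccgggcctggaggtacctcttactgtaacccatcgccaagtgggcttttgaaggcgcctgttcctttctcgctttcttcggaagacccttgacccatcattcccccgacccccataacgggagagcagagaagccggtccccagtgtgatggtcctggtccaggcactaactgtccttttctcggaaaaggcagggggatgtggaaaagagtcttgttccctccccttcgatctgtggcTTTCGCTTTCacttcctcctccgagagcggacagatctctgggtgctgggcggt
PSMB10, chr16:67936801-67937100, minus strand: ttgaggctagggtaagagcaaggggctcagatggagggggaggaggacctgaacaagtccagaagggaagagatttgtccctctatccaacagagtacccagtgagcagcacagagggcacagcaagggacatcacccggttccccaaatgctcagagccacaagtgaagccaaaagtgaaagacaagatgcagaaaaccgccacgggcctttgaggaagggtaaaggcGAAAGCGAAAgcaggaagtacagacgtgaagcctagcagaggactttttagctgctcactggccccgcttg
PSME1, chr14:24135944-24136243, plus strand: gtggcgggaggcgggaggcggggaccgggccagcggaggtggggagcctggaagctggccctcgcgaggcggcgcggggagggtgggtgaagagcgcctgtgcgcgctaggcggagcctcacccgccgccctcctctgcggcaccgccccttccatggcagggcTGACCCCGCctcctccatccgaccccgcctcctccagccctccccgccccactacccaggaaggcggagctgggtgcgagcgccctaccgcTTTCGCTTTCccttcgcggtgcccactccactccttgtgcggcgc
PSME2, chr14:24146561-24146860, minus strand: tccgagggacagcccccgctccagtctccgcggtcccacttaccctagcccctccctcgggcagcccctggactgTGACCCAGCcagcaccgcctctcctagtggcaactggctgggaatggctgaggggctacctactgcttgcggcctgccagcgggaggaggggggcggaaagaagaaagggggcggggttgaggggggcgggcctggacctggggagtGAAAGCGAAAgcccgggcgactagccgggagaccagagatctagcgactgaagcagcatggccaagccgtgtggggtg
PSMG4, chr6:3258697-3258996, plus strand: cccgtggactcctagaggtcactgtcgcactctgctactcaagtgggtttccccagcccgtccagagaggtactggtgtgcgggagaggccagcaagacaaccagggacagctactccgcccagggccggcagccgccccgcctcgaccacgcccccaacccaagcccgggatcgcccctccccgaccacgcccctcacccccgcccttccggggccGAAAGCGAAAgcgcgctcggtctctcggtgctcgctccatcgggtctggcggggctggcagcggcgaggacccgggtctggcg

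The same 10 letters, GAAAGCGAAA or their reverse complement TTTCGCTTTC, stood within 33 bases of the start in PSMB8, PSMB10, PSME1, PSME2 and PSMG4. They occurred in 5 of the 53 proteasome windows (9.43%) and in 35 of 35116 windows of all genes (0.0997%). These 10 letters were picked as the commonest GAAANNGAAA match within the same proteasome windows. Their higher share there was thus partly set by that choice and is no test. The looser GAAANNGAAA was found in 7 proteasome windows (13.2%, against 3.57% of all windows), the other matches being in PSMB4 and PSMA4. Genes with the shared letters had no common value. The log2 fold changes were 0.41 for PSMB8, 0.20 for PSMB10, 0.21 for PSME1, 0.07 for PSME2 and -0.08 for PSMG4. The window of PSMB9, the gene with the highest fold change, held TGACNNNGC and CCAAT but not GAAANNGAAA. A second RefSeq window of PSMB8 held none of the 3 motifs. TGACNNNGC was present in 28.3% of proteasome windows against 13.3% of all windows and CCAAT in 43.4% against 34.6%. The 53 windows include 4 of PSMC3IP and PSME3IP1, which are not proteasome parts. CCAAT was in all 4 of these and the other 2 motifs in 0, so they raise the CCAAT share. A match describes letters, not binding.

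Most genes of the regulatory particle were slightly lower with dox. Of the 6 PSMC ATPases 5 were below 0 (median -0.15), as were 12 of the 14 PSMD genes (median -0.12). PSMC3, an ATPase of the base ring (chr11:47418769-47426473), stood at 154 and 157 normalized CPM without dox and 132 and 127 with dox. PSMC5, also of the base ring (chr17:63827152-63832026), stood at 107 and 118 without dox and 90.8 and 97.9 with dox. In both genes the dox libraries were below the no dox libraries without overlap, with log2 fold changes of -0.26 ± 0.11 (SE) and -0.25 ± 0.12 (SE). The limma unadjusted p was 0.0283 for PSMC3 and 0.0483 for PSMC5, and the adjusted p was 0.467 and 0.533. The other ATPases PSMC4, PSMC2 and PSMC6 ranged from -0.15 to -0.13, with intervals that included 0.

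Within the PSMD genes the roles gave medians close to each other. The 8 lid subunits had a median of -0.14 and 7 were below 0. PSMD1, PSMD2 and PSMD4, the scaffolds and ubiquitin receptor that sit at the base, had a median of -0.17. PSMD5, PSMD9 and PSMD10, chaperones that help build the base and then leave it, had a median of -0.07. The deubiquitinase that strips ubiquitin chains from substrates, PSMD14 (chr2:161308425-161411717), was the only PSMD gene below an unadjusted p of 0.05. It stood at 743 and 723 normalized CPM without dox and 643 and 635 with dox, with both dox libraries below, a log2 fold change of -0.20 ± 0.09 (SE) and an unadjusted p of 0.0465 (limma adjusted p = 0.528). The lowest estimate of the class belonged to the scaffold PSMD1, at 128 and 147 without dox and 109 and 123 with dox. Its groups did not overlap either, with a log2 fold change of -0.25 ± 0.12 (SE) and an interval of -0.51 to 0.01. The highest fold change was that of PSMD10, also known as the oncoprotein gankyrin, at 302 and 268 without dox and 316 and 287 with dox, where the groups overlapped and replicate 1 exceeded replicate 2 in each (log2 fold change 0.08 ± 0.11 (SE)).

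**Figure D3:**
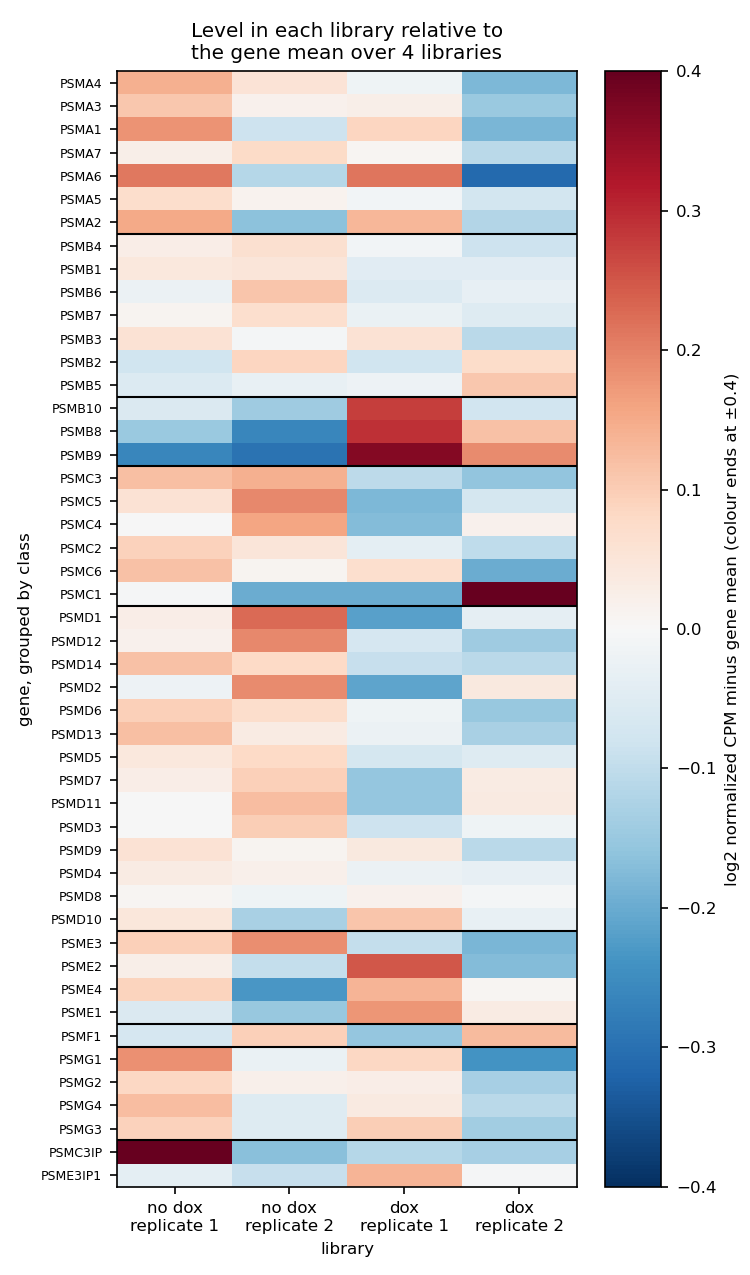
Log2 normalized CPM of the 48 genes (rows, by class) in each of the 4 libraries (columns), minus the mean of the gene; red is above and blue below the mean, and colours end at ±0.4. The PSMB8, PSMB9 and PSMB10 rows turn from blue to red with dox except PSMB10 in dox replicate 2, and PSMC3, PSMC5, PSMD14 and PSME3 turn from red to blue.

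Libraries of the same group also differed from each other. Taking each gene relative to its own mean, the median of the 7 PSMA genes was 0.14 and 0.01 without dox against 0.02 and -0.15 with dox, so that dox replicate 1 lay above no dox replicate 2. In the 7 constitutive PSMB genes the medians were 0.01 and 0.06 without dox and -0.03 and -0.05 with dox. The 3 inducible genes gave -0.15 and -0.26 without dox and 0.29 and 0.12 with dox, the widest separation among the classes. In the PSMC genes they were 0.08 and 0.10 against -0.14 and -0.09, and in the PSMD genes 0.03 and 0.08 against -0.07 and -0.03. The 4 PSMG chaperone genes followed the PSMA pattern, at 0.11 and -0.04 without dox and 0.06 and -0.14 with dox.

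The alternative caps went in both directions. PSME1 encodes the α subunit of PA28, an interferon-inducible cap (chr14:24136163-24138967), and stood at 594 and 556 normalized CPM without dox and 699 and 633 with dox, higher in both dox libraries. Its log2 fold change was 0.21 ± 0.10 (SE), with an unadjusted p of 0.0487 (limma adjusted p = 0.533). PSME2, the β subunit of the same cap, stood at 60.05 and 55.3 without dox and 70.1 and 52.3 with dox. It was highest in one dox library and lowest in the other, for a log2 fold change of 0.07 ± 0.14 (SE). PSME3, which forms the nuclear cap PA28γ on its own (chr17:42824385-42843760), stood at 162 and 172 normalized CPM without dox and 142 and 133 with dox. It was lower in both dox libraries and had the lowest estimate of all 48 genes, -0.28 ± 0.11 (SE), with an unadjusted p of 0.0224 (limma adjusted p = 0.449). PSME4, the single-chain activator PA200, was at a low level, 16.8 and 13.4 without dox and 17.3 and 15.8 with dox, with overlapping groups and a log2 fold change of 0.14 ± 0.17 (SE).

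The inhibitor PSMF1 (PI31) stood at 77.3 and 86.5 normalized CPM without dox and 72.8 and 88.5 with dox, with overlapping groups and a log2 fold change of -0.02 ± 0.13 (SE). All 4 PSMG chaperones, which dimerize to build the α ring, were below 0 with overlapping groups, from -0.16 for PSMG1 to -0.04 for PSMG3. PSMG1, with the lowest fold change of them, stood at 130.1 and 112 without dox and 121 and 97.02 with dox, where dox replicate 1 lay between the no dox libraries. For completeness, PSMC3IP, a cofactor of meiotic recombination, had 104 and 64 without dox and 48 and 55 with dox (reads) and differed by -0.26 ± 0.29 (SE) on the log2 scale, and PSME3IP1 had 1557 and 1380 without dox and 1118 and 1173 with dox (reads) and differed by 0.13 ± 0.12 (SE).

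Transcript levels varied far more between subunits than between conditions. The core holds its subunits in equal numbers, yet without dox the 14 core genes ran from 45.3 ± 7.49 RPKM (mean ± SD, n = 2) for PSMA2 to 1399 ± 146 RPKM for PSMB3, with a median of 442 RPKM. The inducible catalytic genes lay between 39.6 ± 2.599 RPKM for PSMB8 and 48.8 ± 1.104 RPKM for PSMB9, below all constitutive core genes but PSMA2. PSMA2 and the 3 inducible genes did not differ beyond 2 SD of PSMA2. The PSMC genes ran up to 247 ± 4.02 RPKM for PSMC4, the PSMD genes from 20.9 ± 1.41 RPKM for PSMD12 to 378 ± 32.2 RPKM for PSMD14, and the PSME genes from 2.15 ± 0.314 RPKM for PSME4 to 470.3 ± 57.2 RPKM for PSME1. PSME1 was thus measured at a far higher level than PSME2, 39.1 ± 2.65 RPKM, its partner in PA28. These levels rest on the gene model behind each RPKM value, whose implied length ran from 0.744 kb for PSMB3 to 6.84 kb for PSME4.

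**Figure D4:**
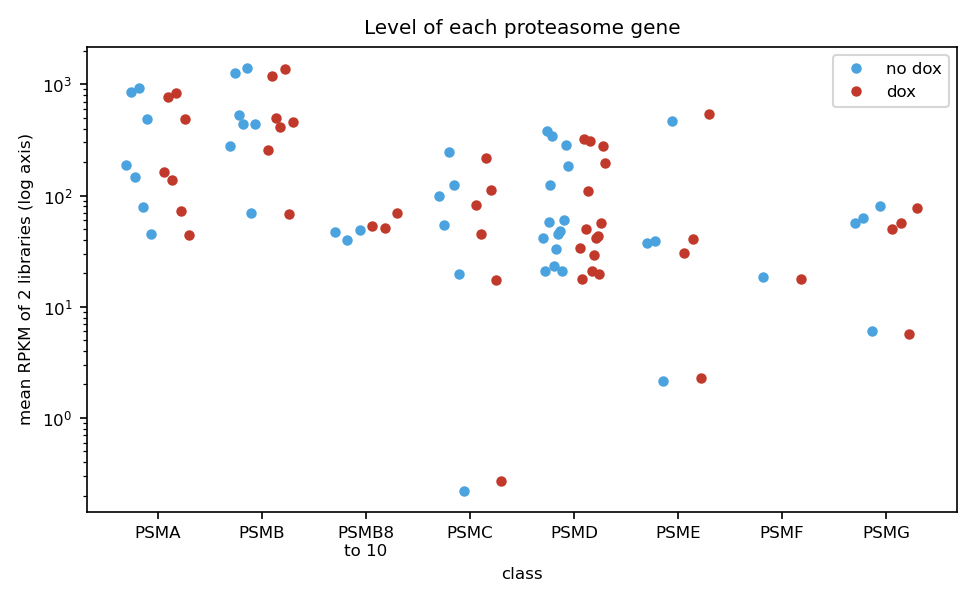
Mean RPKM of 2 libraries (vertical axis, logarithmic) for each of the 46 proteasome genes by class, without dox (blue) and with dox (red); the horizontal spread within a class only separates points. The core genes span 45.3 to 1399 RPKM without dox, the inducible genes sit together at 39.6 to 48.8 RPKM, and PSMC1 lies far below the rest at 0.222 RPKM.

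Several levels depend on where reads were placed. Pseudogenes named after 17 of the 48 genes are listed in the counts, and short reads may align to such copies as well. PSMC1, an ATPase of the base ring, had only 25 and 20 without dox and 15 and 26 with dox (reads), while together with its 13 named pseudogenes it had 936 and 805 without dox and 537 and 603 with dox. The gene itself held 2.99% of that sum, and its log2 fold change of 0.20 ± 0.41 (SE) became -0.14 when the reads were summed. PSMA6 held 22.7% of its sum, PSME2 60.0% and PSMA2 65.2%, whereas PSMC2, PSMD7, PSMD12, PSMD8, PSMD14 and PSMD10 held between 89.5% and 98.9%. Exons of PSMC1 also overlap those of NRDE2 on the opposite strand over 4667 bases, and 21 of the 48 genes share exonic bases with a gene on the opposite strand. Overlap with exons of a gene on the same strand was longest for PSMA2 (1445 bases), PSMD9 (1307), PSMA6 (919), PSMA1 (814) and PSMB10 (640). It was 174 bases for PSMB9. Strand would not separate reads in those bases. The values of PSMC1, PSMA6, PSME2 and PSMA2 are uncertain on these accounts. Those of PSMD9, PSMA1, PSMB10 and PSMB9 may also include reads of neighbours.

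**Figure D5:**
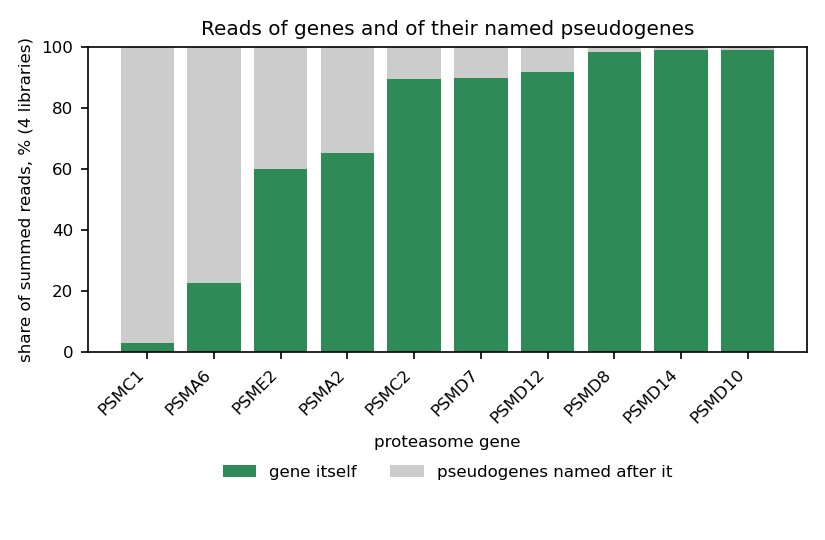
Share of reads, summed over 4 libraries, that were counted to the gene itself (green) and to the pseudogenes named after it (gray), in percent, for 10 proteasome genes. PSMC1 holds 2.99% of its sum and PSMA6 22.7%, whereas the 6 genes at the right hold 89.5% or more.

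Genes that work with the proteasome showed no call either. Of 53 such genes in 7 lists, 52 were tested and 0 were called. By limma's unadjusted p, 6 (11.5%, against 9.28% of all genes) fell under 0.05, of which 3 were higher with dox and 3 lower. Among 6 further subunits and assembly factors (median -0.05), PAAF1, a factor that binds the ATPases of the base, stood at 114 and 116 normalized CPM without dox and 136 and 149 with dox, higher in both dox libraries by 0.31 ± 0.11 (SE) on the log2 scale. The ubiquitin receptor ADRM1 stood at 109 and 123 without dox and 94.1 and 99.9 with dox, lower in both dox libraries, with a log2 fold change of -0.25 ± 0.12 (SE). POMP, the chaperone that closes the core, overlapped between groups at a log2 fold change of -0.09. The route of NFE2L1, the factor that raises proteasome genes when proteasome activity falls short, held 10 tested genes (median 0.05) and 0 below that p, with NFE2L1 itself at 34.8 and 48.7 normalized CPM without dox and 38.5 and 43.6 with dox.

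The other lists were near level. The 6 ubiquitin and E1 genes had a median of -0.01, the 6 proteasome-bound deubiquitinases and ligases -0.10 and the 8 shuttle factors -0.08, with 0 genes in each below an unadjusted p of 0.05. Among 7 genes of the p97 segregase, which extracts ubiquitinated proteins for the proteasome, the median was 0.04, and both subunits of its main adaptor were lower in the 2 dox libraries. NPLOC4 stood at 76.4 and 92.7 normalized CPM without dox and 68.6 and 65.7 with dox and UFD1 at 201 and 184 without dox and 171 and 148 with dox, with log2 fold changes of -0.32 ± 0.13 (SE) and -0.28 ± 0.11 (SE). The immunoproteasome inducers and partners had a median of 0.25, with 7 of 10 above 0. HLA-C, an MHC class I heavy chain gene, stood at 16.4 and 15.6 normalized CPM without dox and 20.5 and 23.5 with dox, higher in both dox libraries. Its log2 fold change was 0.46 ± 0.15 (SE), with a limma adjusted p of 0.362. TAP1, whose start region overlaps that of PSMB9, stood at 23.7 and 28.4 normalized CPM without dox and 22.4 and 27.5 with dox, overlapping between groups with a log2 fold change of -0.06 ± 0.16 (SE). The interferon-responsive factor IRF1, which acts on several immunoproteasome genes, also overlapped, at 8.18 and 7.65 without dox and 7.25 and 8.38 with dox.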

How the data were processed

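RNA-seq of 2 no dox and 2 dox MIB1-iKO samples at day 3 was analysed. By the study's methods, the authors removed ribosomal reads, aligned single-end reads to GRCh38 with GSNAP (at most 2 mismatches) and counted reads over gene exons with HTSeqGenie. The counts deposited are whole reads per gene, not normalized. The RPKM values deposited by the authors are reads scaled by gene model length and sequencing depth, with a further scaling per library. The methods name a low-input kit (Smart-Seq with Nextera XT) and a stranded one (TruSeq), but which of them made these libraries, and whether counting used strand, was not given in the sources used here. The methods also name RefSeq gene models whereas the deposited identifiers are Ensembl. Reads shared with pseudogenes, antisense genes or overlapping genes on the same strand are therefore uncertain.

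Genes were first filtered by filterByExpr, a step that the study's methods do not describe (16181 genes kept, all of the 48 genes named above among them). The rest of the design followed those methods, with scaling by library size, quantile normalization, voom weights and limma 3.58.1 in R 4.3.3 without covariates, and Benjamini-Hochberg adjustment over all genes tested. Calls required an adjusted p of 0.05 or less together with an absolute log2 fold change of 1 or more. Quantile normalization gives genes of equal rank equal values. Total reads ranged from 15943025 to 24398411. Of the 48 genes, all but PSMC1, PSMC3IP and PSME4 had at least 529 reads per library, and limits cover counting error only. No library repeats another (chi-square over degrees of freedom at least 8.18 for any pair). The study describes its replicates as biological. Whether they were separate cultures, and of what kind, was not given in the sources used here, so p-values measure the spread between these samples.

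Named were MIB1, the catalytic genes, PSME1 to PSME4 and PSMF1, the highest and lowest gene of each class, every proteasome or partner gene at an unadjusted p under 0.05, and PSMC3IP and PSME3IP1. One partner gene that met the rule is not reported here. Genes named beyond this rule were chosen after their values were seen. The members and lists were chosen with earlier results of these data known. Alternatives were voom with TMM or library size only, edgeR 4.0.16 (quasi-likelihood), DESeq2 1.42.0, no filter, a mean count of at least 50, the replicate number as a block, limma on RPKM with 0.1 or 1 added before the logarithm, thinning to the smallest library, other adjusted p thresholds (0.05 or 0.1 alone) and leaving out each library. After the data were seen, summing pseudogene reads into the gene and removing trends with GC content and length (99.7% of genes with values) were added. The fits were tried on simulated counts in which 200 genes were changed by more than 2-fold. Changes as small as those of the proteasome genes were not simulated.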

Additional observations from a re-analysis of the deposited data

How the results depend on the processing

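No proteasome gene was called under the 14 alternatives that keep all libraries, nor with any of the 4 libraries left out. The number at an unadjusted p under 0.05, 7 as reported, was 4 with library size only, 4 with DESeq2 and 21 with the replicate block (where 20.2% of all genes were under that p, against 9.28% without it). It was lower when 1 library was left out. Except for the block, the share of all genes under that p in these alternatives is not given here. Called genes, 6 as reported, were 0 without a filter, 0 on log2(RPKM + 0.1), 0 on log2(RPKM + 1) and 78 with the replicate block, and 0 whichever library was left out. MIB1 was then not called either, at log2 fold changes of -3.00 to -2.16. The fits that leave out a library assume that the lone sample varies like the others, and why these counts moved was not tested.

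The numbers of the replicates are not said to mark a shared day or culture. Over all genes, same-numbered samples deviated together with a correlation of 0.134, and replicate 1 exceeded replicate 2 in both groups for 28 of the 48 genes, 6 of 7 PSMA and 4 of 4 PSMG genes among them, against 31.6% of all genes. With the number as a block, 10 of the 48 genes reached a limma adjusted p of at most 0.05, as did 1154 of the 16181 genes tested. The 10 were PSMB9, PSMB8, PSME1, PSME3, PSMA4, PSMD14, PSMC3, PSMD1, PSMC5 and PSMD13. The lowest limma adjusted p among them was 2.59e-06, for PSMB9. With 4 libraries this fit leaves little information on the spread of a single gene. Its p-values rest largely on the spread shared over all genes.

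Class medians kept their sign under the 12 other fits that use all libraries. The PSMD median, -0.12, was -0.16 on log2(RPKM + 0.1) and -0.15 on log2(RPKM + 1). With 1 library left out, medians ranged from -0.12 to -0.0477 for the core, 0.32 to 0.49 for PSMB8 to PSMB10, -0.18 to -0.17 for PSMC, -0.15 to -0.0876 for PSMD, -0.17 to -0.000696 for PSMG, -0.12 to -0.0584 for all 48 genes and -0.0336 to 0.25 for PSME, which changed sign. The pair ratios ranged from 0.62 to 0.64 (PSMB9/PSMB6), 0.20 to 0.34 (PSMB10/PSMB7) and 0.28 to 0.38 (PSMB8/PSMB5). PSMA2 was -0.0204 with TMM, -0.0106 with library size only, -0.0221 with edgeR, -0.0155 with DESeq2, -0.0230 on log2(RPKM + 0.1) and -0.0226 on log2(RPKM + 1). PSMC1 was -0.14 with pseudogene reads, and had no value at a mean count of at least 50. With 1 library left out, sign changes were seen for PSMA2 (-0.15 to 0.17), PSMC1 (-0.0973 to 0.49), PSMC3IP (-0.53 to 0.0428), PSMD10 (-5.32e-06 to 0.17), PSME2 (-0.14 to 0.29), PSME4 (-0.0200 to 0.30), PSMF1 (-0.17 to 0.11), PSMG1 (-0.31 to 0.00191) and PSMG3 (-0.17 to 0.0757). PSMB9 stayed between 0.46 and 0.65 and PSMB8 between 0.32 and 0.49. Depth limits PSMC1, at 15 to 26 reads per library.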
